A study of Mus musculus with 10 samples.

Results

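Neuropeptides are made as large precursors that are cut, trimmed and amidated inside dense-core granules, and 10 genes of that pathway were examined in the hypothalamus of tumour-bearing mice: Pcsk1, Pcsk2, Pcsk1n, Cpe, Pam, Chga, Chgb, Scg2, Scg3 and Vgf. They were chosen by name, as the probe sets that the array's annotation paired with exactly 1 of these symbols. Of the 10, 9 had such a probe set, 1 each, out of 18820 genes that had at least 1. Pcsk2, which encodes the other main convertase of neuroendocrine cells, had none and is not analysed here. All 9 lay far above the filter on low values (4.32 on the log2 scale, on at least 3 arrays) and were among the 12978 genes tested.

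The animals were male CDF1 mice, a BALB/c by DBA/2 hybrid, aged 10 to 11 weeks. Tumour-bearing mice had been given 1000000 C26 colon adenocarcinoma cells subcutaneously in the flank, in 0.2 ml of Hank's balanced salt solution, and controls a sham injection of 0.2 ml of that solution. The mice were housed singly, ate a standard diet ad libitum and were killed on day 20. Single arrays covered 3 control and 5 tumour-bearing mice, with 1 further array of RNA pooled from 4 control mice and 1 of RNA pooled from 5 tumour-bearing mice. The C26 tumour is a transplanted line used as a model of cancer cachexia, the wasting that accompanies some cancers. The comparison asks whether the machinery that turns appetite peptide precursors into active peptides differs in hypothalamic messenger RNA between these groups.

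Inside the granule, the convertase encoded by Pcsk1 cuts precursors after pairs of basic residues, carboxypeptidase E (Cpe) removes the basic residues left at the new end, and peptidylglycine alpha-amidating monooxygenase (Pam) turns a terminal glycine into an amide. The granins (Chga, Chgb, Scg2, Scg3 and Vgf) are acidic proteins stored in the same granules, where they take part in granule formation, and several are themselves cut into peptides. In the hypothalamus these products act on precursors such as pro-opiomelanocortin and pro-thyrotropin-releasing hormone, and deficiency of Pcsk1 or Cpe causes obesity in mice or people.

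The promoters of 3 of the genes share the cAMP response element (CRE), the palindrome TGACGTCA, which is bound by the activity-regulated factor CREB. RefSeq promoter windows on GRCm38.p6 were matched by symbol for 8 of the 10 genes, and the 250 bases before the start site were searched on both strands. Cpe and Vgf had no matched window and were not searched. The CRE was present in Scg2, Chgb and Pcsk1, and in 1.55% of all 32851 windows searched. These stretches are shown because they carry that shared element, given in capitals. For Scg2 (chr1:79440047-79440146, minus strand) and Chgb (chr2:132781522-132781621, plus strand) the stretch runs from 120 to 21 bases before the start. For Pcsk1 (chr13:75089768-75089797, plus strand) 30 bases are given, since RefSeq also lists a start further upstream.
Scg2: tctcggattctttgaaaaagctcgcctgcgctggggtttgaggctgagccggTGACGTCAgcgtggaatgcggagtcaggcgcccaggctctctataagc
Chgb: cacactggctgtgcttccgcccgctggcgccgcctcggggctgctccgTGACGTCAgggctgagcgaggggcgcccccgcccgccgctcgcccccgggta
Pcsk1: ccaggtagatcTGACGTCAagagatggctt
The element begins 68 bases before the start in Scg2, 72 in Chgb and 78 in Pcsk1. The shorter core TGACG, which the CRE contains, was found in Chga, Scg3 and Pcsk2 as well as in those 3 genes, and in 17.8% of all windows. The E-box CANNTG was found in 6 of the 8 genes (66.2% of all windows) and TGTTCT, part of the glucocorticoid response element, in Pcsk1n alone (16.1% of all windows). A match describes the letters in the window and does not show that a factor binds there.

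The single arrays carried transcripts of hypothalamic marker genes. Passing the filter does not identify the tissue, since all 8 striatal markers with a probe set of their own passed it too. All 16 hypothalamic marker genes with a probe set of their own passed the filter, among them Sim1, a transcription factor gene of the paraventricular nucleus, at 6.97 to 7.52 in the 8 single mice. The summary score of these 16 genes (the mean of their log2 values, each centred on the 8 single arrays) was -0.18 to -0.11 in controls and -0.03 to 0.20 in tumour-bearing mice, with no overlap and a difference of 0.23, and 14 of the 16 were higher. Some arrays also differed in markers of neighbouring tissue. Gh, the pituitary growth hormone gene, was at 10.45 and 10.48 in tumour-bearing mice 3 and 4 and at 9.82 in the pool of tumour-bearing RNA, against 4.21 to 5.51 on the remaining single arrays. The score of pituitary markers was 1.18 in mouse 3 and 1.10 in mouse 4 and -0.66 to -0.18 in the others. In all, 5 of the 15 listed markers contributed, Pomc and Chga being left out and others lying below the filter or without a probe set of their own. Gh weighed most in this score, with a range of 6.27 over the single mice against 0.417 to 1.78 for the other contributing markers. In mice 3 and 4 Cga, Lhb and Ghrhr also lay above every control, and Tbx19 did not. Pomc was at 5.62 and 5.55 in these mice, below every control. The midbrain marker score of 14 genes was 0.18 to 0.57 in controls and -0.74 to 0.27 in tumour-bearing mice, and the oligodendrocyte score of 10 genes 0.21 to 0.31 and -0.48 to 0.19. The striatal marker score of 8 genes was 0.44 in tumour-bearing mouse 1 and 0.56 in the tumour-bearing pool, against -0.13 to 0.03 in the remaining single mice. The part of the hypothalamic, oligodendrocyte and striatal scores in the results below was not tested. In tissue samples such as these, fewer cells of a type and less RNA per cell cannot be told apart. Over all tested genes 10 were higher and 0 lower in tumour-bearing mice (limma adjusted p under 0.05, 12978 genes; 1335 genes had an unadjusted p under 0.05), which is 0.0771% of genes. Leaving out 1 mouse moved that count between 0 (control 3 left out) and 53 (tumour-bearing mouse 2 left out), and it was 76 when the probe sets of each gene were averaged.

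None of the 9 genes passed that threshold: limma called 0 of 9, with Vgf, higher, alone at an unadjusted p under 0.05. Over all tested genes 3.78% were higher and 6.51% lower at that unadjusted p, 10.3% in all. No gene of the 9 had all tumour-bearing mice above or all below the controls. Of all tested genes 3.11% lay wholly above, 5.19% wholly below and 8.3% had groups that did not overlap in either way. Among 9 genes a count of 0 is near that share. The log2 differences, tumour-bearing minus control, ran from -0.11 for Pcsk1 to 0.24 for Vgf. Their median was 0.03, against -0.01 over all tested genes, with 6 differences above 0 and 3 below. The values of every array, in log2 RMA units, are plotted by gene.

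**Figure D1:**
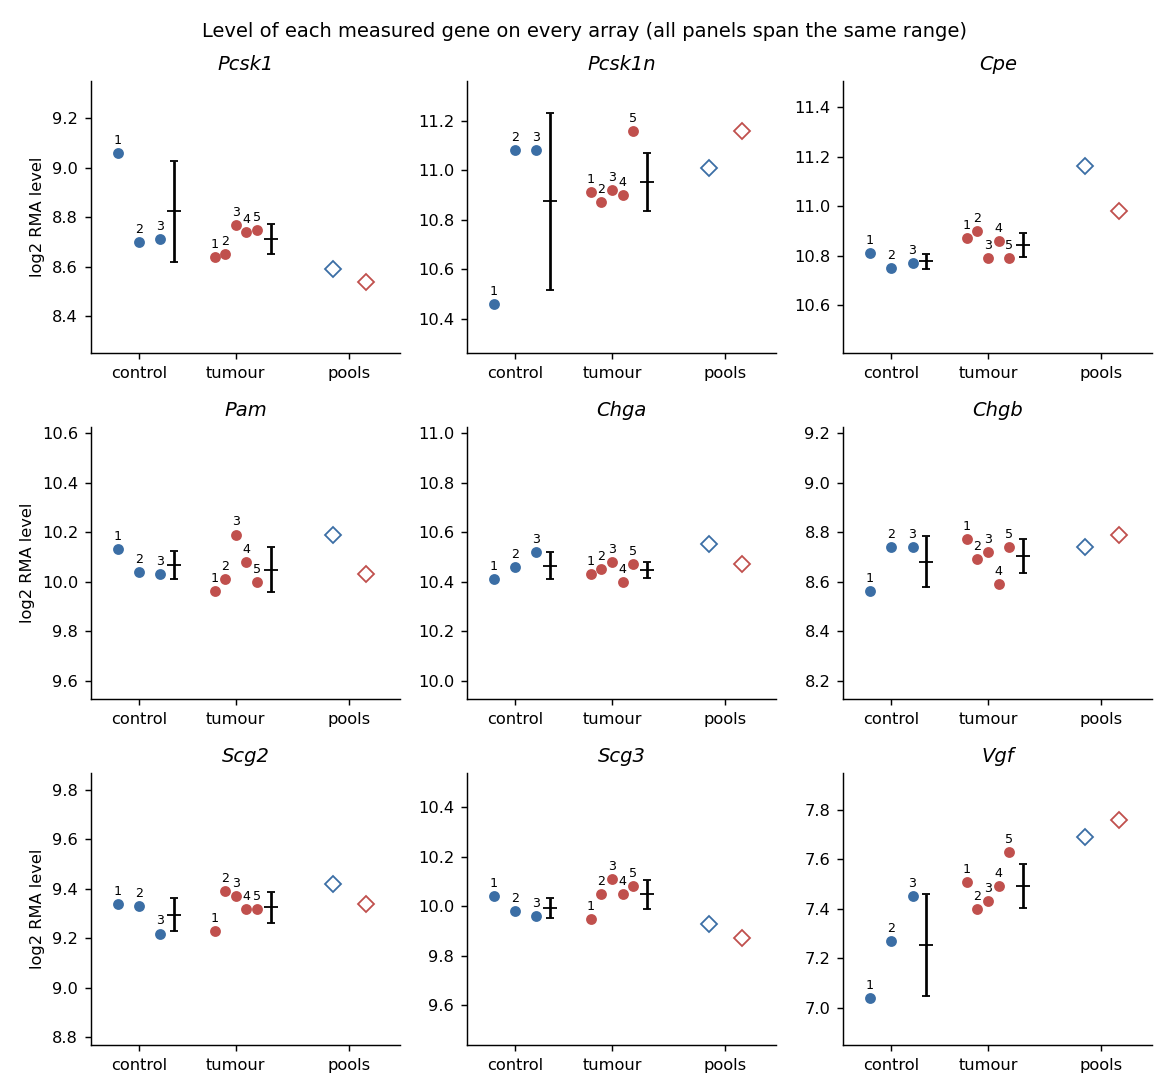
Level of each of the 9 genes on every array, as log2 RMA values. Filled points are single mice numbered within their group (blue control, red tumour-bearing), bars the mean ± SD of each group and open diamonds the 2 pools. Every panel spans the same range, so distances can be compared between panels. Control 1 stands away from the other controls for Pcsk1 (9.06) and Pcsk1n (10.46), while the 3 controls are spread about evenly for Vgf.

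The convertase gene Pcsk1 (probe set 10406229) was at 9.06, 8.70 and 8.71 in controls 1, 2 and 3, and at 8.64, 8.65, 8.77, 8.74 and 8.75 in tumour-bearing mice 1 to 5. Control 1 lay above all other arrays, and the other 2 controls lay among the tumour-bearing mice. The means were 8.82 ± 0.204 (SD, n = 3) and 8.71 ± 0.0608 (SD, n = 5), a log2 difference of -0.11 ± 0.0807 SE (95% interval -0.30 to 0.07, limma adjusted p = 0.666). Without control 1 the difference was 0.003. With the midbrain score as a covariate it was -0.282 ± 0.109 SE (limma adjusted p = 0.897). That score itself differed by -0.67 between the groups. Group and score are therefore partly confounded in this fit and in those given below for other genes.

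Pcsk1n encodes proSAAS, a granin-like protein that inhibits the Pcsk1 convertase. Its level (probe set 10598493) was 10.46, 11.08 and 11.08 in the controls and 10.91, 10.87, 10.92, 10.90 and 11.16 in the tumour-bearing mice. Control 1 was the lowest of all arrays and tumour-bearing mouse 5 the highest, while the remaining 6 arrays fell between 10.87 and 11.08. The groups averaged 10.87 ± 0.361 (SD, n = 3) and 10.95 ± 0.116 (SD, n = 5), and the log2 difference was 0.08 ± 0.135 SE (95% interval -0.22 to 0.38, limma adjusted p = 0.887). It turned to -0.129 without control 1 and was 0.184 without control 3, 0.148 with the pituitary score as a covariate and 0.207 with the midbrain score. A probe set that the annotation pairs with both Pcsk1n and Eras was not used.

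Control 1 was thus high for the enzyme and low for its inhibitor. The within-array difference of Pcsk1 minus Pcsk1n, whose absolute size has no meaning because probe sets differ in brightness, was -1.40 in control 1, -2.38 in control 2 and -2.38 in control 3. In tumour-bearing mice 1 to 5 it was -2.28, -2.22, -2.14, -2.17 and -2.41, so that all but control 1 lay within a narrow band. Its change between the groups was -0.19 (two-sided exact permutation p = 0.589 over 56 splits of the mice, smallest possible 0.0179; adjusted p = 0.589 over 2 pairs), and 0.132 without control 1. No difference in the balance of enzyme and inhibitor was detectable in these mice.

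Cpe, the carboxypeptidase that trims the cut ends, varied little: 8.0% of tested genes had an SD over the 8 single mice as small as or smaller than its 0.0502. The levels (probe set 10578904) were 10.81, 10.75 and 10.77 in controls and 10.87, 10.90, 10.79, 10.86 and 10.79 in tumour-bearing mice. Mice 1, 2 and 4 of the tumour-bearing group lay above every control and the other 2 lay among them. The log2 difference was 0.06 ± 0.035 SE (95% interval -0.02 to 0.14, limma adjusted p = 0.579), from 10.78 ± 0.0292 (SD, n = 3) to 10.84 ± 0.0461 (SD, n = 5). In the pools Cpe differed the other way, at 11.16 in the pool of controls and 10.98 in that of tumour-bearing mice.

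Pam, the amidating enzyme (probe set 10356968), was at 10.13, 10.04 and 10.03 in controls and at 9.96, 10.01, 10.19, 10.08 and 10.00 in tumour-bearing mice. Tumour-bearing mice lay on both sides of the controls, with 1 above and 3 below all of them. The mouse above, number 3, had the highest pituitary score (1.18) and also the lowest midbrain score (-0.74). Mouse 4, with a pituitary score of 1.10, was at 10.08, within the range of the controls. A relation of Pam to either score was not tested. The means were 10.06 ± 0.0567 (SD, n = 3) and 10.05 ± 0.0905 (SD, n = 5), a log2 difference of -0.02 ± 0.0542 SE (limma adjusted p = 0.952). It was -0.073 without tumour-bearing mice 3 and 4, -0.104 with the pituitary score as a covariate (limma adjusted p = 0.465) and -0.143 with the midbrain score, and between -0.052 and 0.017 when single mice were left out. The within-array difference of Cpe minus Pam changed by 0.08 between the groups (two-sided exact permutation p = 0.321; adjusted p = 0.589 over 2 pairs), and by 0.147 without tumour-bearing mice 3 and 4.

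Among the granins, Chga, the gene of chromogranin A, was the steadiest of the 9 genes. Its level (probe set 10397882) was 10.41, 10.46 and 10.52 in controls and 10.43, 10.45, 10.48, 10.40 and 10.47 in tumour-bearing mice, a span of 0.112 over all 8. Only 2.3% of tested genes had an SD over the 8 mice as small as or smaller than its 0.0372. The log2 difference was -0.02 ± 0.0347 SE (95% interval -0.09 to 0.06, limma adjusted p = 0.918), so a change beyond 0.937-fold or 1.04-fold on the deposited scale lay outside the interval. Chgb, chromogranin B (probe set 10476355), was at 8.56, 8.74 and 8.74 in controls and 8.77, 8.69, 8.72, 8.59 and 8.74 in tumour-bearing mice. Here control 1 and tumour-bearing mouse 4 were the lowest and the remaining arrays overlapped. The log2 difference of Chgb was 0.03 ± 0.0574 SE (limma adjusted p = 0.916), and -0.035 without control 1.

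Scg2 encodes secretogranin II, the precursor of secretoneurin. It was measured (probe set 10355960) at 9.34, 9.33 and 9.22 in controls and at 9.23, 9.39, 9.37, 9.32 and 9.32 in tumour-bearing mice. The groups overlapped over most of their range, with control 3 and tumour-bearing mouse 1 both low. The log2 difference was 0.03 ± 0.0461 SE (95% interval -0.07 to 0.13, limma adjusted p = 0.868), and -0.007 without control 3. Scg3, secretogranin III, which binds chromogranin A at the granule membrane, was at 10.04, 9.98 and 9.96 in controls and 9.95, 10.05, 10.11, 10.05 and 10.08 in tumour-bearing mice (probe set 10595033). Of those 5 mice 4 lay above every control, and mouse 1 lay just below them. The log2 difference of Scg3 was 0.05 ± 0.0423 SE (95% interval -0.04 to 0.15, limma adjusted p = 0.698), 0.08 without tumour-bearing mouse 1, 0.012 with the pituitary score as a covariate and -0.002 with the midbrain score.

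Vgf had the largest difference of the 9. It encodes a granin-like precursor, induced by nerve growth factor, whose peptides act on energy balance. Its level (probe set 10526553) was 7.04, 7.27 and 7.45 in controls and 7.51, 7.40, 7.43, 7.49 and 7.63 in tumour-bearing mice. Mice 1, 4 and 5 lay above every control, mice 2 and 3 lay below control 3, and the controls spread more widely than the tumour-bearing mice. The means were 7.25 ± 0.207 (SD, n = 3) and 7.49 ± 0.0915 (SD, n = 5), with a log2 difference of 0.24 ± 0.092 SE (95% interval 0.03 to 0.45), or 1.18-fold. The unadjusted limma p was 0.0277 and the adjusted p = 0.413, with 0.264 to 0.897 over all alternatives. The difference depended on control 1: it was 0.131 without that mouse and 0.338 without control 3. Leaving out tumour-bearing mice 3 and 4 gave 0.26 and the fit with the midbrain score as a covariate 0.288. The pools were at 7.69 (control) and 7.76 (tumour-bearing), a difference of 0.07.

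For 6 of the 9 genes (Cpe, Pam, Chga, Chgb, Scg2 and Scg3) the 95% interval of the difference lay wholly within a 1.2-fold change in either direction, a limit chosen after the values were seen. The same was true of 55.2% of all tested genes. The 6 kept such an interval in each of the 8 fits that left out 1 mouse, and the intervals of Pam and Chgb exceeded the limit with the midbrain score as a covariate. For Pcsk1, Pcsk1n and Vgf the interval reached beyond the limit, so a change of that size was not excluded in these 3 genes. The intervals of Pcsk1 and Pcsk1n included 0, and that of Vgf, 0.03 to 0.45 before adjustment over all genes, did not. RMA compresses folds, and the limit applies to the deposited values.

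**Figure D2:**
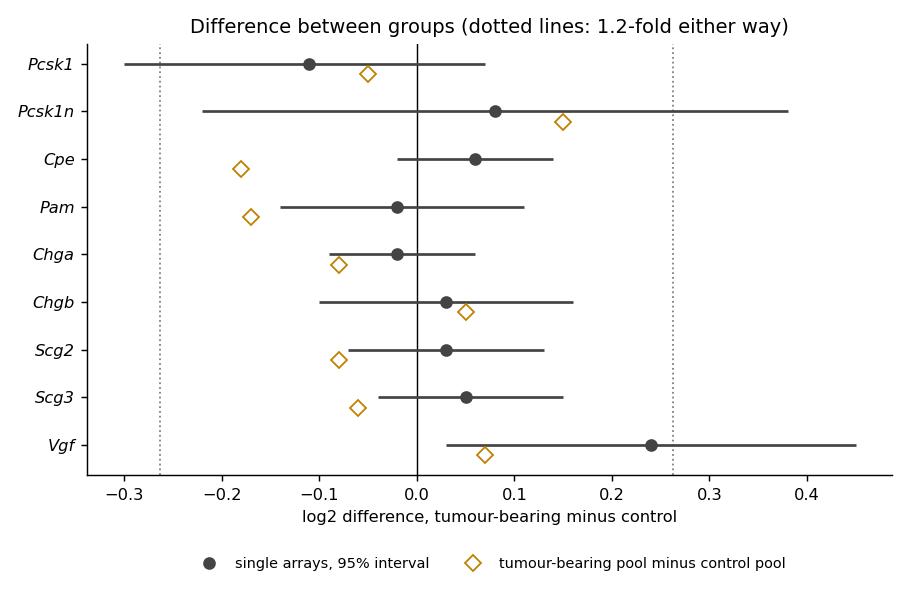
Log2 difference of each gene, tumour-bearing minus control. Points and lines are the limma estimate over 3 control and 5 tumour-bearing mice with its 95% interval, open diamonds the tumour-bearing pool minus the control pool, and dotted lines mark 1.2-fold in either direction. Vgf has the one interval that does not reach 0, at 0.03 to 0.45 before adjustment over all genes.

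The difference between the pools had the sign of the difference between single mice for 6 of the 9 genes (Pcsk1, Pcsk1n, Pam, Chga, Chgb and Vgf) and the opposite sign for Cpe, Scg2 and Scg3. Pool differences ran from -0.18 for Cpe to 0.15 for Pcsk1n. Both pools lay outside the range of the 8 single mice for 4 of the 9 genes, above it for Cpe and Vgf and below it for Pcsk1 and Scg3, and this was so for 24.9% of all tested genes. Each pool is a single array and gives no measure of spread.

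Pcsk1n, Vgf and Pcsk1 varied most over the 8 single mice, with SDs of 0.216, 0.18 and 0.132 against a median of 0.103 over all tested genes. The tested genes with the closest profiles, by the root mean square difference of centred log2 levels over these 8 mice, were Rab11fip1 (0.049), Fam219a (0.0555) and Syvn1 (0.0674) for Pcsk1n. For Vgf they were Sox1 (0.0526), Zbtb7c (0.055) and Phf2 (0.056), and for Pcsk1 they were Chordc1 (0.0245), 4930453N24Rik (0.0362) and Hdac2 (0.0384). Because the neighbours were chosen for their likeness over the same mice, they share the deviation of control 1 by construction. Over the whole array, control 1 differed more from its group than the other mice did: 15.1% of tested genes were more than 0.25 log2 units from the mean of the other controls, against 5.02% to 9.88% for the other 7 mice, each set against the rest of its own group. Of the 9 measured genes 3 passed that distance in control 1 (Pcsk1, Pcsk1n and Vgf), 2 in control 3 (Pcsk1n and Vgf), 1 in control 2 and 1 in tumour-bearing mouse 5 (Pcsk1n in both). For Pcsk1n, controls 2 and 3 were both at 11.08, so their distance arises from control 1 in the mean they were set against. A control was also set against fewer mice than a tumour-bearing mouse was. Some tissue markers set control 1 apart from controls 2 and 3 as well. Slc6a4 was at 3.78 against 6.45 and 5.93, Cga at 7.71 against 6.29 and 6.10, and the midbrain score at 0.18 against 0.57 and 0.51. Its oligodendrocyte score, 0.30, lay between theirs (0.31 and 0.21). The part of such markers in the deviation of control 1 was not tested. None of the 9 neighbours passed the threshold between the groups; the smallest adjusted p was 0.292, for Sox1 (limma, log2 difference 0.31 ± 0.0859 SE).

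**Figure D3:**
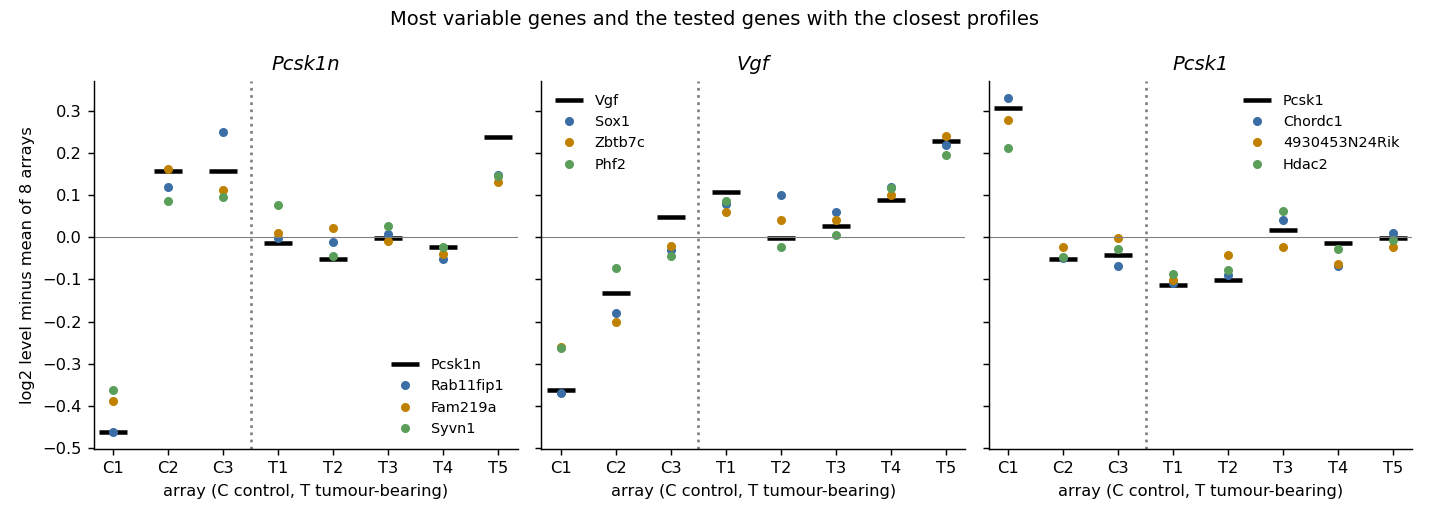
Log2 level minus the mean of the 8 single mice (C1 to C3 control, T1 to T5 tumour-bearing) for the 3 most variable genes, drawn as black dashes, and for the 3 tested genes with the closest profile to each, drawn as coloured points. Control 1 is far from the other mice for Pcsk1n (10.46) and Pcsk1 (9.06), and the neighbours, chosen for likeness over these same mice, follow it by construction.

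In the rest of the processing pathway limma called no gene either. Scg5, which encodes the chaperone of the Pcsk2 convertase, was at 8.86, 8.95 and 8.86 in controls and 8.99, 8.91, 8.92, 8.88 and 8.96 in tumour-bearing mice (log2 difference 0.04 ± 0.041 SE, limma adjusted p = 0.803). Of 18 other processing enzymes and their partners, Scg5 included, 15 were tested and limma called 0. At an unadjusted p under 0.05 there were 2, beside 10.3% of all tested genes, and the median difference was 0.03. The largest differences were those of Cpd, a carboxypeptidase of the trans-Golgi network (-0.20 ± 0.0583 SE, limma adjusted p = 0.304), the convertase Pcsk4 (0.15 ± 0.0921 SE) and the lysosomal protease cathepsin L, Ctsl (-0.13 ± 0.0569 SE). Cpd was at 8.79, 8.61 and 8.67 in controls and 8.46, 8.51, 8.51, 8.59 and 8.38 in tumour-bearing mice. All tumour-bearing mice thus lay below the controls for Cpd, as they did for 5.19% of all tested genes. The pools differed by -0.12 for Cpd.

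Genes for the granule's membrane, transport and release were tested for 25 of 26 listed. Limma called 0, and 1 had an unadjusted p under 0.05, beside 10.3% of all tested genes. The median difference was 0.01, with a range from -0.12 to 0.12. The extremes were Cadps, which primes granules for release (-0.12 ± 0.0511 SE, limma adjusted p = 0.439), Vamp2, a fusion protein of vesicles (0.12 ± 0.0634 SE), and the granule GTPase gene Rab27b (0.11 ± 0.0596 SE). Groups did not overlap for 0 of the 25, and for 8.3% of all tested genes. Whether the list departs from that share was not tested.

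Peptidases that degrade released peptides included 14 tested of 16 listed, 0 of them called by limma. At an unadjusted p under 0.05 there were 2, beside 10.3% of all tested genes, and the median difference was -0.05. Dpp4, whose product removes N-terminal dipeptides from neuropeptide Y among others, was at 5.68, 5.41 and 5.76 in controls and 4.82, 4.86, 5.30, 5.22 and 4.66 in tumour-bearing mice. All tumour-bearing mice lay below all controls, as for 5.19% of all tested genes. The log2 difference was -0.65 ± 0.165 SE (limma adjusted p = 0.269), and -0.71 between the pools. The aminopeptidase genes Anpep and Enpep differed by -0.36 ± 0.197 SE and -0.21 ± 0.149 SE, with overlapping groups.

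The peptide precursors held the largest differences of the pathway's lists, although none was called. Of 41 listed precursors 32 were tested and limma called 0, with 9 higher and 2 lower at an unadjusted p under 0.05. Among all tested genes 3.78% were higher and 6.51% lower at that unadjusted p. Their differences ran from -1.07 for Rln3 (relaxin 3) to 0.84 for Npy (neuropeptide Y), with a median of 0.06, and Oxt, oxytocin, differed by 0.66. Rln3 lay below the filter level of 4.32 in tumour-bearing mice 3 (3.60) and 5 (3.84). Within that group Rln3 and the midbrain score were both lowest in mouse 3 and highest in mouse 2, and the part of that score was not tested. For 7 of the 32 tested precursors, Npy, Avp and Trh among them, every tumour-bearing mouse exceeded every control. This was so for 3.11% of all tested genes and for 0 of the 9 processing genes and granins, a count near that share. The hypothalamic marker score, which includes Oxt, Avp and Trh themselves, was higher by 0.23 in the same mice, and its part in these differences was not tested. Whether the precursors as a list differ from the processing genes was not tested.

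Genes induced by neuronal activity, several of which are known targets of CREB, were listed beside the 3 genes in which a CRE was found. Vgf and Cpe were not searched for a CRE, and a relation between the lists was not tested. Of 15 tested of 16 listed, 12 were lower and 3 higher in tumour-bearing mice. Over all 12978 tested genes 7067 were lower and 5911 higher. Limma called 0 of the 15, and 5 were lower at an unadjusted p under 0.05, as were 6.51% of all tested genes. Their median was -0.25, against -0.01 over all tested genes. Fos differed by -0.52 ± 0.162 SE, Nr4a2 by -0.44 ± 0.0739 SE and Egr1 by -0.40 ± 0.122 SE. Scg2, Chgb and Pcsk1 differed by 0.03, 0.03 and -0.11. The midbrain marker score differed by -0.67 between the groups, and its part in the differences of the activity genes was not tested.

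**Figure D4:**
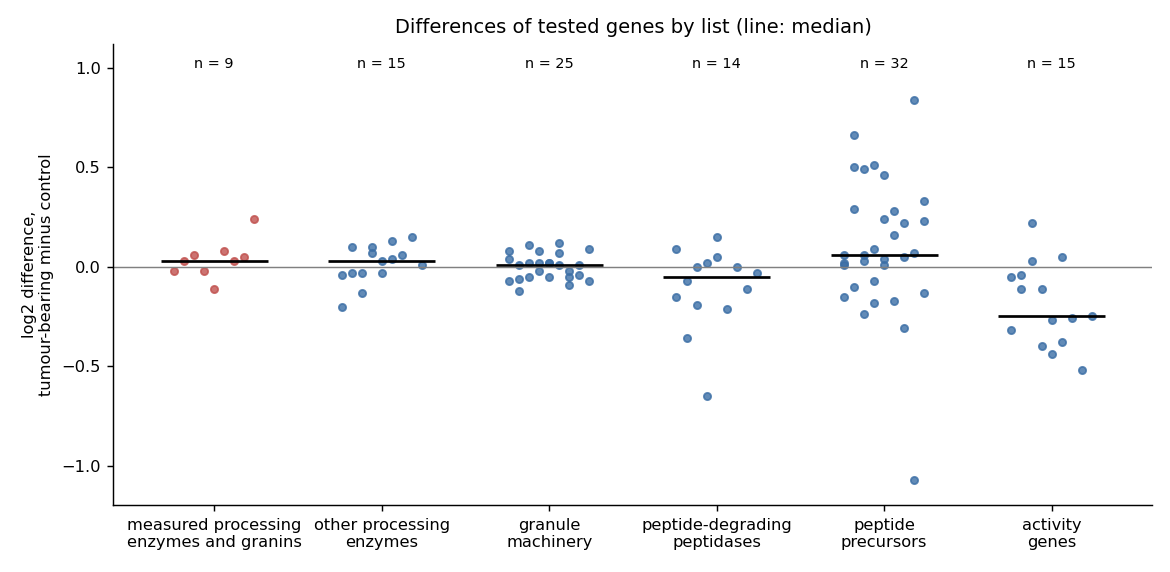
Log2 difference, tumour-bearing minus control, of every tested gene in 6 lists, 1 point per gene, with a line at each list's median and the number of tested genes above it. The 9 measured processing enzymes and granins lie between -0.11 and 0.24, and the 32 precursors between -1.07 and 0.84.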

How the data were processed

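The authors used RMA, according to the submitters' processing notes, and deposited values on a log2 scale, which was read from their range. The RMA version, probe set definition and genome build are not given in the sources used here. Since RMA equalises the distributions of the arrays, a general rise or fall of transcripts would not show. Of 35556 probe sets, 21218 were paired with exactly 1 gene, 1881 with several, and 12457 are unnamed here. A gene was represented by its brightest probe set. The filter kept 22837 probe sets that exceeded a linear value of 20 on at least 3 of the 8 single arrays. Groups were compared with limma 3.58.1 in R 4.3.3 (trended eBayes; the robust alternative used statmod 1.5.0), with p-values adjusted by Benjamini-Hochberg over all of them and a threshold of 0.05. The fit was tested on simulated data. The pools entered 1 alternative only, since the labels do not say whether they hold RNA of the same mice.

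The genes and lists were chosen with earlier results of these data known. Named genes were all measured members, Scg5, any called gene of each related list or else up to 3 with the largest difference, the 3 nearest profiles of the 3 most variable members, and others such as Avp, Trh and Sim1 from marker lists. Promoter sequences are RefSeq's (GRCm38.p6); no position is given for the probe sets. Planned within-array differences that needed Pcsk2 could not be made. The number of arrays limits the precision. Plots used matplotlib 3.10.9 (Python 3.11.15).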

Additional observations from a re-analysis of the deposited data

Results flagged for a closer look

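Pcsk1n in tumour-bearing mouse 5 was at 11.16, apart from the other tumour-bearing mice, which lay between 10.87 and 10.92. The gap to the nearest mouse was 0.853 of the group's range, above Dixon's critical value of 0.71 for 5 samples. A gap above that critical value arises by chance in about 1 in 20 groups, and 10 genes were examined in this way (the 9 measured genes and Scg5). Control 1, at 10.46, lay further from its group, but groups of 3 were not examined.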

How the results depend on the processing

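The 9 differences were recomputed under 22 alternatives each. Of these 198 values 186 kept their sign, 12 turned, and none was called by limma (smallest adjusted p = 0.264). The count of kept signs overstates stability. Alternatives that altered only the filter, the variance model or the choice of probe sets could not change a difference, since each gene had only 1 probe set of its own. With array weights Pcsk1n was -0.05, Pam 0.007 and Chgb -0.022; with the pools as samples Cpe was -0.01; with the midbrain score as a covariate Scg3 was -0.002. Leaving out single mice gave -0.174 to 0.003 for Pcsk1, -0.129 to 0.184 for Pcsk1n, 0.049 to 0.079 for Cpe, -0.052 to 0.017 for Pam (0.006 without tumour-bearing mouse 1), -0.04 to 0.012 for Chga, -0.035 to 0.057 for Chgb, -0.007 to 0.054 for Scg2, 0.037 to 0.08 for Scg3 and 0.131 to 0.338 for Vgf. The change of Pcsk1 minus Pcsk1n, -0.194, ran from -0.358 without control 3 to 0.132 without control 1, and that of Cpe minus Pam kept its sign.

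The count of genes called over the whole array, 10, was 3 with no filter, 3 with no intensity trend, 17 with array weights, 76 when the probe sets of each gene were averaged, 68 with single-gene probe sets only, 1 with the pituitary score, 0 with the midbrain score, 0 without tumour-bearing mice 3 and 4, and 0 to 53 when single mice were left out. The cause was not tested. With the replicate number as a block it was 0 and no member was called. Correlations of deviations were -0.00, 0.01 and 0.01 for same-numbered mice and -0.04 to 0.03 for the other pairs. That gave no sign of pairing by number, but values centred within such small groups cannot exclude it.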
